A study of Mus musculus with 2 samples.

Results

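Immediate early genes are the genes that cells transcribe within minutes of a stimulus, from transcription factors that are already present and with no need for new protein synthesis. In skeletal muscle they are known to respond to contraction, stretch, injury and tissue handling. Their products are mostly transcription factors of the AP-1, Egr and Nr4a families, together with phosphatases and growth regulators that shut the response off, and their mRNAs are usually short-lived. The 10 members described here are Fos, Fosb, Jun, Junb, Egr1, Atf3, Ier2, Btg2, Dusp1 and Nr4a1, chosen by symbol, and all 10 had a row among the 55536 annotated genes of both libraries.

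The data were total RNA-seq of gastrocnemius, the large calf muscle. The tissue came from female B6CASTF1/J mice, a cross of C57BL/6J with the wild-derived CAST/EiJ strain, at 36 days of age, and the labels name no treatment. The study's 2 libraries form 1 group of that genotype, sex, age and tissue, so there was no condition to compare, and the differences given below are between single libraries and carry no test. The labels number the libraries as separate biological replicates, and their free text numbers the females 3 for replicate 1 and 4 for replicate 2. Both carry 1 shared donor record, so how far their spread is between animals or technical cannot be told apart.

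The libraries held 37735687 and 40656175 expected counts, in the order replicate 1 and replicate 2 that is kept throughout. Mitochondrial genes took 9.39% and 17.5% of them. Levels are in TPM, a transcript abundance corrected for length and for library size. Fast-fibre markers were all detected, and the 8 of them summed to 98255 and 70860 TPM, each lower in replicate 2 by less than 2-fold. Markers of other fibres and cells differed between the libraries. All 8 slow-fibre markers were over 2-fold higher in replicate 2, with sums of 23.5 and 2925 TPM, while 7 of 8 fat cell markers (371 and 114 TPM), 8 of 8 Schwann cell markers (128 and 39.5 TPM) and 6 of 6 red blood cell markers (2445 and 425 TPM) were over 2-fold lower. None of these markers was at 0 in either library. The lymphocyte markers summed to 0.27 and 6.80 TPM, with 4 of 10 at 0 in replicate 1 and all 6 that passed the count minimum over 2-fold higher in replicate 2. Neutrophil markers were near the floor at 0.41 and 0.22 TPM, with 4 and then 6 of 8 at 0. Endothelial (56.9 and 67.2 TPM), fibroblast (684 and 703 TPM), macrophage (28.3 and 30.7 TPM) and satellite cell (34.3 and 34.9 TPM) markers had none over 2-fold apart among those past the count minimum. Higher in replicate 2 were 8 of 8 endothelial, 4 of 8 fibroblast, 6 of 7 macrophage and 7 of 8 satellite cell markers. Of 8 smooth muscle markers (109 and 112 TPM) 4 were lower and 4 higher, with 1 over 2-fold lower. All 8 tendon markers (69.2 and 99.8 TPM) were higher in replicate 2 with counting intervals above 1, by a median of 0.72 on the log2 scale, and 1 was over 2-fold higher. In bulk tissue, fewer cells of a type and less RNA per cell cannot be told apart, and the part of these differences in the values below was not tested.

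The members' levels spanned from 74.9 TPM for Nr4a1 to 0.18 TPM for Fosb as means of both libraries. Of the 10, 9 reached 1 TPM in both libraries, against 19.5% of all annotated genes, and the exception was Fosb. The summed level of the members was 140.24 TPM in replicate 1 and 192.46 TPM in replicate 2. Nr4a1, Dusp1, Jun and Btg2 formed an upper tier, each at 8.16 TPM or more in both libraries, while the other 6 stayed at or below 5.36 TPM. Within the upper tier the ranges of Dusp1 and Jun overlapped, as did those of Jun and Btg2. Within the lower tier Fos changed place: it was below Egr1 in replicate 1 and above Junb in replicate 2.

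**Figure D1:**
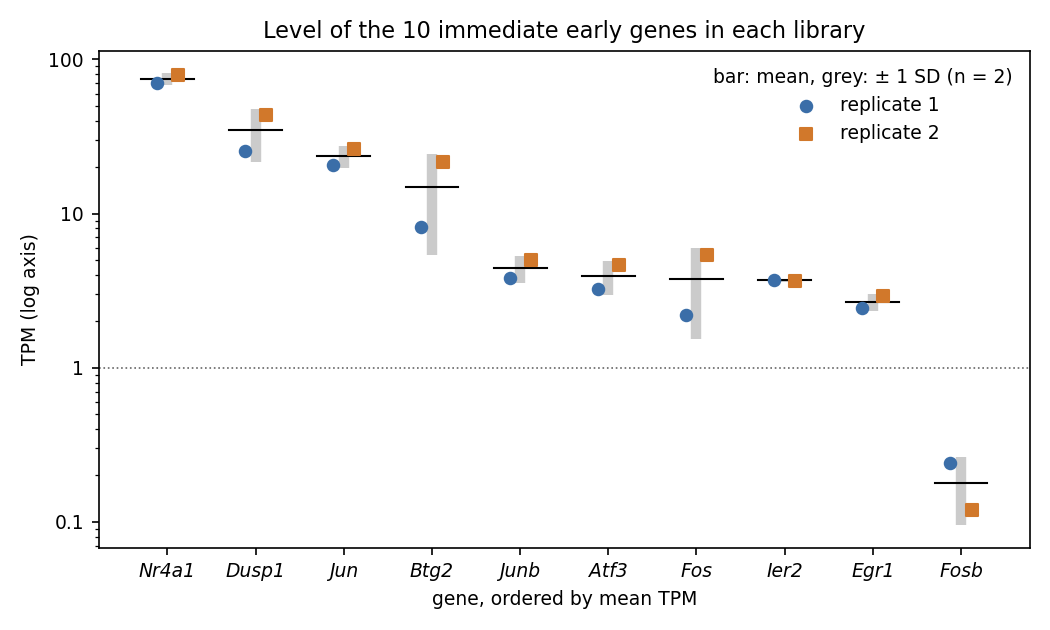
Level of each member in each library, in TPM on a log axis, with 1 point per library, a black bar at the mean and a grey bar of 1 SD either side (n = 2). Nr4a1 stands highest in both libraries and Fosb lowest, and Btg2, Dusp1 and Fos show the widest gaps among the members above 1 TPM.

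Immediate early promoters are known to carry short binding motifs close to the start, so the sequence there is shown for 5 members: Fos, Btg2 and Fosb, whose levels differed most between the libraries, Dusp1, which shares a full motif with Btg2, and Nr4a1, the member with the highest level. RefSeq windows (GRCm38.p6) of 250 bases before the start were matched for 8 of 10 members, all but Egr1 and Ier2. Capitals mark TGACG, the core of the cAMP response element (CRE) that CREB and ATF proteins bind, on the printed strand or, as CGTCA, on the other. The sequences run 5′ to 3′ on the gene's strand, and bases past the start of a transcript that begins within the window were left out. The Nr4a1 and Dusp1 windows still lie in introns of longer annotated forms, Nr4a1-202 and Dusp1-205. Fos is chr12:85473640-85473889 on the plus strand, and Btg2 is chr1:134079156-134079405 on the minus strand. Fosb is chr7:19310052-19310295 and Dusp1 is chr17:26508520-26508722, both on the minus strand, and Nr4a1 is chr15:101266596-101266845 on the plus strand, before the start of its transcript Nr4a1-201.
Fos: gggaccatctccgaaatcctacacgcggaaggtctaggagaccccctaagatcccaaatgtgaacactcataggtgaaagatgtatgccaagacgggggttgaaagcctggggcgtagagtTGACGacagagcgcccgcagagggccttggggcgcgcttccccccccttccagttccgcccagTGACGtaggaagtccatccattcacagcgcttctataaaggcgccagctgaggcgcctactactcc
Btg2: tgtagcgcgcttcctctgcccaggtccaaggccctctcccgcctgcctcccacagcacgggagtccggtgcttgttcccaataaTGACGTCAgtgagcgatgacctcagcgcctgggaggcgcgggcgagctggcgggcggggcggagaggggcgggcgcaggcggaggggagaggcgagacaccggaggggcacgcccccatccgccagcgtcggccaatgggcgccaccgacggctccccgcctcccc
Fosb: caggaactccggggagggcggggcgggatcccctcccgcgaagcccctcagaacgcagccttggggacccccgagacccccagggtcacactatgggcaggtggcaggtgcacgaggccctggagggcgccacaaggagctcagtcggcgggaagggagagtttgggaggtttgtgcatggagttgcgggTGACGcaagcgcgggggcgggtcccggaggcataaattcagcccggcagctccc
Dusp1: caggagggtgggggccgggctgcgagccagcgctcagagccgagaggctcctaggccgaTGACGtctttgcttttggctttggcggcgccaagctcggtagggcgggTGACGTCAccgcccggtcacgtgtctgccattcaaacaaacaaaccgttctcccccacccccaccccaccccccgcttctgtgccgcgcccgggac
Nr4a1: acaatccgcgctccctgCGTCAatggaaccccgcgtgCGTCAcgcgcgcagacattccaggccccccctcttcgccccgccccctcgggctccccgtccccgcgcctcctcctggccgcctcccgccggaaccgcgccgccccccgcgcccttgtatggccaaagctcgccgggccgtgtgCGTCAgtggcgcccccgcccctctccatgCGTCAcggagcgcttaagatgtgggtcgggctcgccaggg

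The CRE core TGACG was searched on both strands of the full 250 bases, including bases left out of the printed sequences. It was in 7 of 8 member windows, against 17.8% of all 32851 windows of the same length, and Jun was the exception. The only core of Atf3, at bases 7 to 3 on the other strand, lies in the first exon of the annotated Atf3-201. The full palindrome TGACGTCA, which contains the core on both strands, was in Btg2 and Dusp1, against 1.55% of windows. In Btg2 it spans bases 166 to 159 before the start and in Dusp1 bases 143 to 136. Positions are counted from the RefSeq start, and the printed Dusp1 and Fosb sequences end 47 and 6 bases before it. For Dusp1 that is the start of Dusp1-206, and Dusp1-202 starts 47 bases further upstream. Fos held the core at bases 129 to 125 and 66 to 62, with TATAAA at 33 to 28, and was the only member window with those TATA box letters, against 12.4% of windows. Nr4a1 held 4 cores, all on the other strand, and Fosb held 1 on the printed strand. The Egr motif GCGNGGGCG was in Btg2, Fosb and Nr4a1, against 4.7% of windows, and CCAAT was in Btg2, Jun and Junb, against 33.8%. No member window held the AP-1 motif TGANTCA (6.75% of windows) or the CArG box (1.47%) in these letters. Egr1 and Ier2 had no window, and sites more than 250 bases before the start were not searched. Member windows had a GC content of 58.4% to 74.4%, against a median of 52.4%, and this difference in base composition was not taken into account.

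Fos encodes a leucine zipper protein that binds DNA as a dimer with Jun proteins (ENSMUSG00000021250.13, mm10 chr12:85473890-85477273, plus strand). Its level was 2.20 TPM in replicate 1 against 5.36 TPM in the other library, from 108 and 289 counts. The replicate 2 library was 2.55-fold higher, with a 95% counting interval of 2.04 to 3.21, and 4.70% of the 15007 tested genes, those averaging 10 or more counts, differed by more on the log2 scale. These intervals are exact, come from scaled counts and cover counting error only.

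Fosb, a Fos paralog known for its stable truncated protein in stimulated neurons, was barely present (ENSMUSG00000003545.3, chr7:19302696-19310051, minus strand). It was at 0.24 and 0.12 TPM, from 26 and 10 counts. Replicate 1 was 2.73-fold higher, with an interval of 1.27 to 6.34, so Fosb went the opposite way to Fos. Its level ranked 15615 among all annotated genes, and its ratio rests on those few counts.

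Jun encodes the main dimer partner of Fos and is a single-exon gene (ENSMUSG00000052684.4, chr4:95049034-95052222, minus strand). It was at 20.72 and 26.17 TPM, and replicate 2 was 1.27-fold higher (interval 1.20 to 1.35). Junb, a Jun paralog that often restrains Jun-driven transcription (ENSMUSG00000052837.6, chr8:84974484-84978718, minus strand), was at 3.79 and 5.02 TPM with a ratio of 1.33 (1.11 to 1.61). Jun and Junb thus had overlapping ratio intervals at different levels, 23.4 ± 3.85 TPM for Jun and 4.41 ± 0.870 TPM for Junb (SD, n = 2).

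Atf3 encodes a stress-induced factor of the ATF/CREB group that can dimerise with Jun proteins (ENSMUSG00000026628.13, chr1:191170296-191218039, minus strand). It was at 3.26 and 4.65 TPM, from 153 and 279 counts. The count ratio was 1.74 (1.42 to 2.13), a log2 ratio of 0.80, but the log2 ratio of TPM was 0.50. The estimated effective length rose from 1537 to 1859 bases between the libraries, and the transcripts to which its reads were assigned differed too.

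The zinc-finger and nuclear receptor factors differed in level but little between the libraries. Egr1, a zinc-finger activator that is induced through serum response factor (ENSMUSG00000038418.7, chr18:34859823-34864984, plus strand), was at 2.43 and 2.90 TPM, with a ratio of 1.15 whose interval, 0.968 to 1.38, includes 1. Nr4a1, an orphan nuclear receptor known for metabolic control in muscle (ENSMUSG00000023034.7, chr15:101254269-101274795, plus strand), was at 70.44 and 79.26 TPM from 4891 and 5743 counts, the highest member. Its ratio was 1.12 (1.08 to 1.16), and 59.7% of tested genes differed by more. Nr4a1 ranked 730 among all annotated genes by mean level.

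The members that act outside AP-1 differed from each other in how far apart the libraries were. Btg2, an antiproliferative protein that recruits the CCR4-NOT deadenylase (ENSMUSG00000020423.6, chr1:134075170-134079120, minus strand), was at 8.16 and 21.51 TPM, from 659 and 1834 counts. Its ratio of 2.65 (2.43 to 2.91) was exceeded on the log2 scale by 4.38% of tested genes. Dusp1, a phosphatase that inactivates stress-activated kinases such as p38 and JNK (ENSMUSG00000024190.7, chr17:26505590-26562128, minus strand), was at 25.27 and 43.83 TPM, from 1353 and 2547 counts, a ratio of 1.79 (1.68 to 1.92). Ier2, a nuclear protein of the early response (ENSMUSG00000053560.4, chr8:84661331-84662852, minus strand), was at 3.73 and 3.64 TPM, from 162 and 167 counts, a ratio of 0.983 (0.787 to 1.23). The Ier2 interval includes 1, and 93.4% of tested genes differed by more.

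Of the 10 members, 3 were over 2-fold apart, against 7.72% of the tested genes: Btg2 and Fos were higher in replicate 2, where 4.62% of genes were, and Fosb was lower, where 3.1% were. All 3 hold the CRE core in the windows printed above, but 7 of the 8 member windows did, so the core does not set these 3 apart. A ratio above 1 was found for 8 of 10, against 49.7% of genes. The counting interval lay above 1 for 7 members, against 20.5% of genes, and left out 1 for 8, against 40.8%. The median log2 ratio over the members was 0.38, and over all tested genes it was -0.0028. The common spread between the libraries, the biological coefficient of variation estimated by edgeR, was 0.220 over 14263 genes. For single members it was 0.362 for Btg2, 0.354 for Fos and 0.271 for Dusp1, and 0.178 for Egr1. These single values come from the same 2 counts as each ratio, drawn by edgeR toward those of other genes. They therefore follow the ratios and are no separate measure. Despite its name the coefficient also includes technical spread between the libraries.

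**Figure D2:**
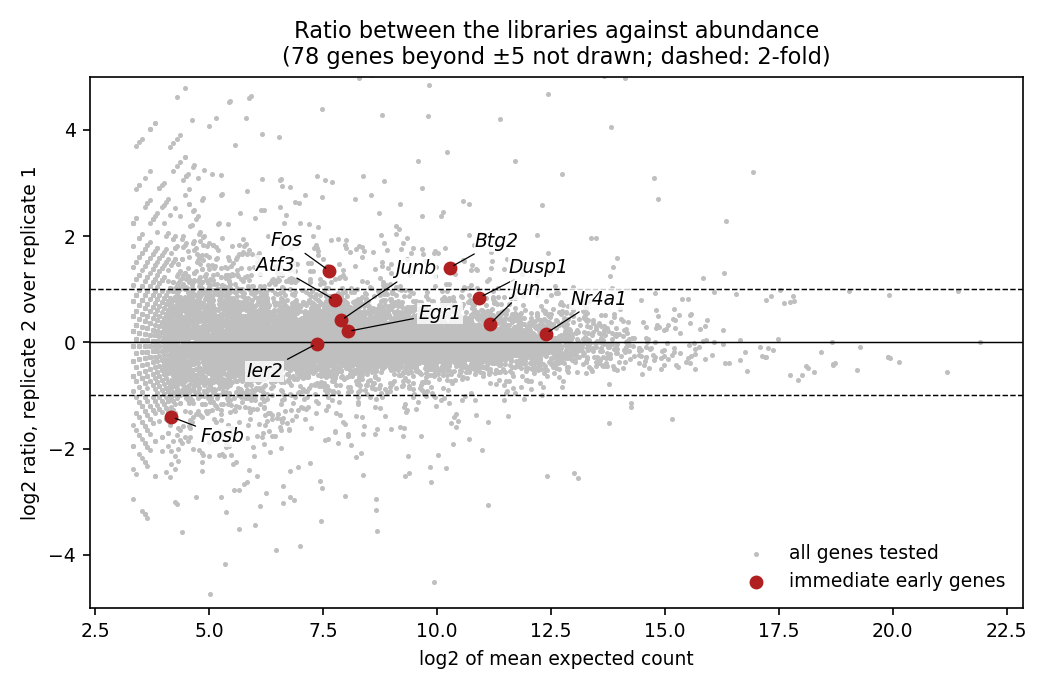
Log2 ratio of replicate 2 over replicate 1 against mean expected count on a log axis, with 1 grey point per tested gene and the members named. Btg2 and Fos lie above a log2 ratio of 1 and Fosb below -1, and 78 genes beyond the plotted range are not drawn.

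Scaling moved the ratios of all genes together. Under a scaling by the total of spike-in RNA, the median of all tested genes became 0.39 and that of the members 0.77. Dusp1 and Atf3 then also passed 2-fold, with log2 ratios of 1.24 and 1.19, and Ier2 turned from -0.02 to 0.37. In that scaling 5 of 10 members were over 2-fold apart against 11.3% of tested genes, 4 of them higher in replicate 2 (9.68% of genes) and Fosb lower (1.65%). The members' median was 0.38 above that of all genes in that scaling, in TMM and in DESeq2 size factors. That is fixed by construction, since these scalings shift every log2 ratio equally. Fosb was lower in replicate 2 in every setting, and its log2 ratio of TPM with a pseudocount of 0.1 was -0.63.

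**Figure D3:**
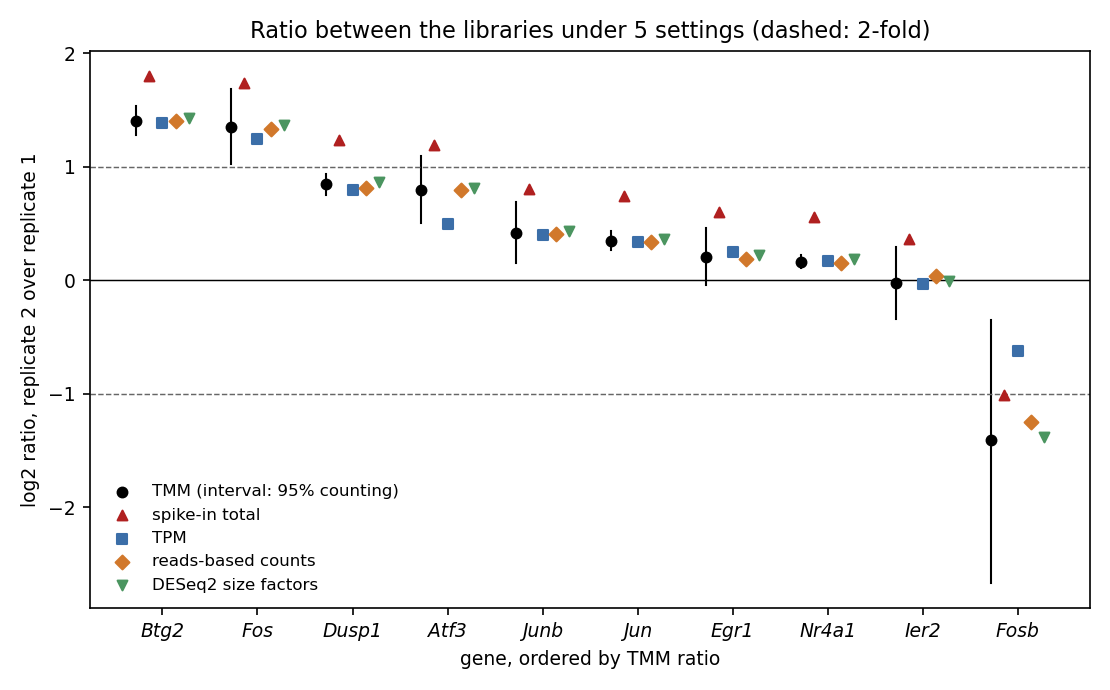
Log2 ratio of each member, replicate 2 over replicate 1, under 5 scalings or tables, with 1 point per setting, black bars for the 95% counting interval under TMM and dashed lines at 2-fold. The spike-in scaling shifts the points upward, and in these settings Btg2 and Fos stay above 1 while Fosb stays below 0.

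Set within their families, the members held unequal shares of the level. Among Fos, Fosb, Fosl1 and Fosl2, which summed to 8.70 and 11.93 TPM, Fosl2 held the most, 71.7% and 54.1%. Fos held 25.3% and 44.9% of the family level, and its share of counts had 95% Wilson intervals of 7.83% to 11.2% and 19.1% to 23.4%, which do not overlap. Fosl2 itself was at 6.24 and 6.45 TPM, a ratio of 0.999 (interval 0.916 to 1.09) beside 2.55 for Fos. In the Jun family no share differed by more than 2 percentage points between the libraries: Jun held 41.2% and 42.4%, Junb 7.54% and 8.13%, and Jund 51.2% and 49.5%. The Egr and Nr4a families were added after their values had been seen. Egr1 held 85.0% and 83.6% of an Egr sum of 2.86 and 3.47 TPM. Nr4a1 held 84.5% and 94.8% of a sum of 83.40 and 83.57 TPM, while the share of Nr4a3 was 15.1% and 4.45%.

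The transcript tables showed which forms carried the counts. Each library has one table from reads aligned to transcripts and another made directly from the reads. Protein-coding transcripts held 96.9% and 96.7% of the members' counts in the first, and 96.9% and 96.4% in the second. Jun, Ier2 and Btg2 have 1 annotated transcript each. Fos-201, the 4-exon coding form, held 88.1% and 92.3% of Fos counts, and processed transcripts held the rest.

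Dusp1 held the most counts on retained-intron forms, which keep an intron that the coding mRNA lacks. Its retained-intron transcripts Dusp1-203 and Dusp1-204 held 228.92 and 354.73 counts, or 16.9% and 13.9% of the gene, and 17.7% and 15.6% in the reads-based table. The coding Dusp1-202 held 83.1% and 86.1% by alignment. The reads-based table gave part of this to Dusp1-206, 6.46% and 21.7%, a form that the alignment-based table listed at 0 and whose 1587 exonic bases all lie within Dusp1-202. The split between these coding forms therefore depended on the table, and the retained-intron share differed by less than 2 percentage points between tables.

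The tables disagreed on the form of Nr4a1. The alignment-based table put 96.5% and 96.7% of its counts on Nr4a1-201, which starts 12577 bases inside the gene. The reads-based table put 98.8% and 98.7% on Nr4a1-202, which starts at the gene's first base. These forms share 2351 exonic bases and each have their own first exons, with 126 bases found only in Nr4a1-201 and 202 only in Nr4a1-202, so the start in use cannot be read from these counts. Within each table the libraries differed by less than 1 percentage point.

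Atf3 reads were also divided differently. Atf3-203, which starts 34699 bases upstream of Atf3-201, held 4.04% and 32.7% by alignment and 25.3% and 29.0% by reads. The library difference in its share was thus wide in one table and narrow in the other. Egr1-202 held 74.2% and 85.6%, and Egr1-201, with 1448 further exonic bases, held the rest. Of the 26 Fosb counts of replicate 1, 19.91 were on Fosb-205 and 6.09 on the retained-intron Fosb-204. Of the 10 in replicate 2, 8.58 were on Fosb-203, which differs from Fosb-205 by 108 exonic bases, and 1.42 on Fosb-206.

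**Figure D4:**
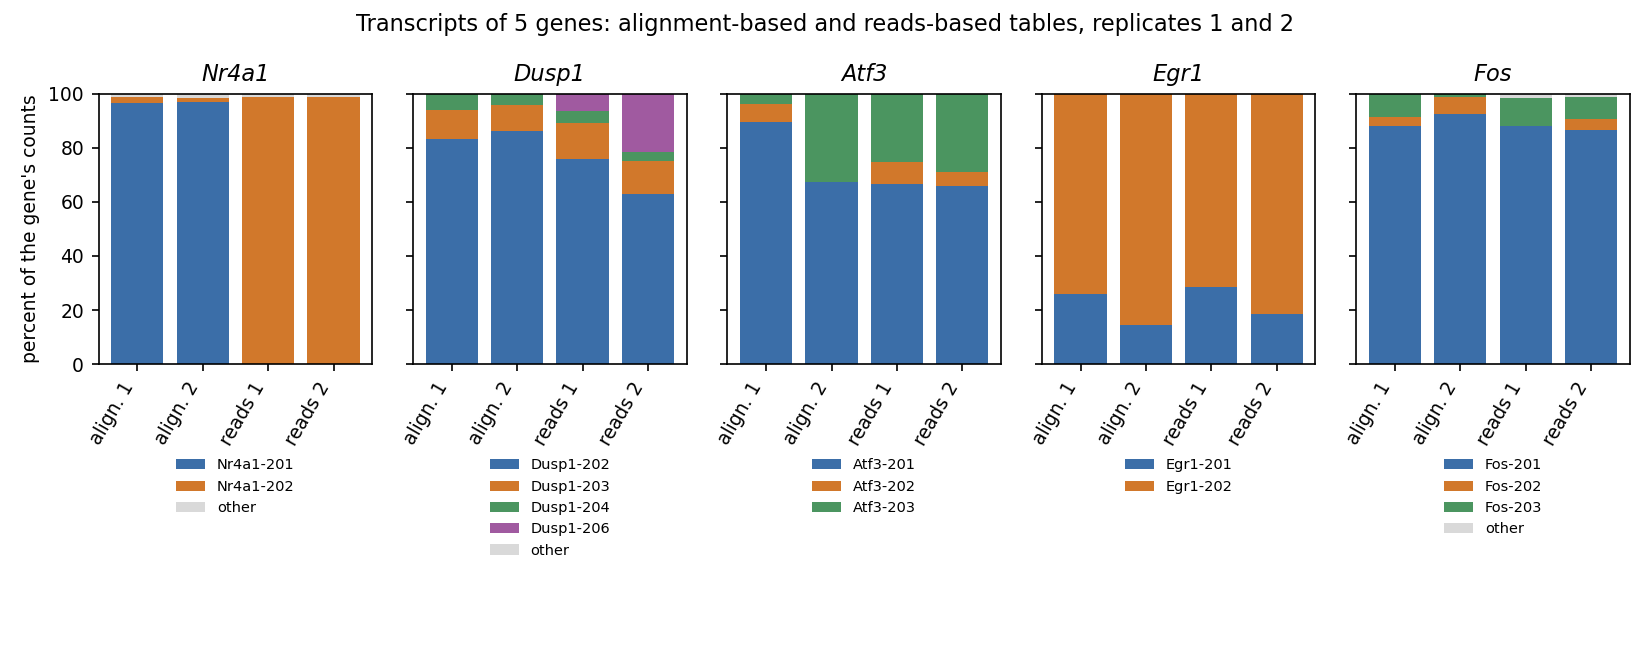
Percent of the gene's counts on each transcript of Nr4a1, Dusp1, Atf3, Egr1 and Fos, as bars stacked from 0, for the alignment-based (align.) and reads-based (reads) tables of replicates 1 and 2. Dusp1 and Fos place most counts on one coding form in both tables, and Nr4a1 switches from Nr4a1-201 to Nr4a1-202 between tables.

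**Figure D5:**
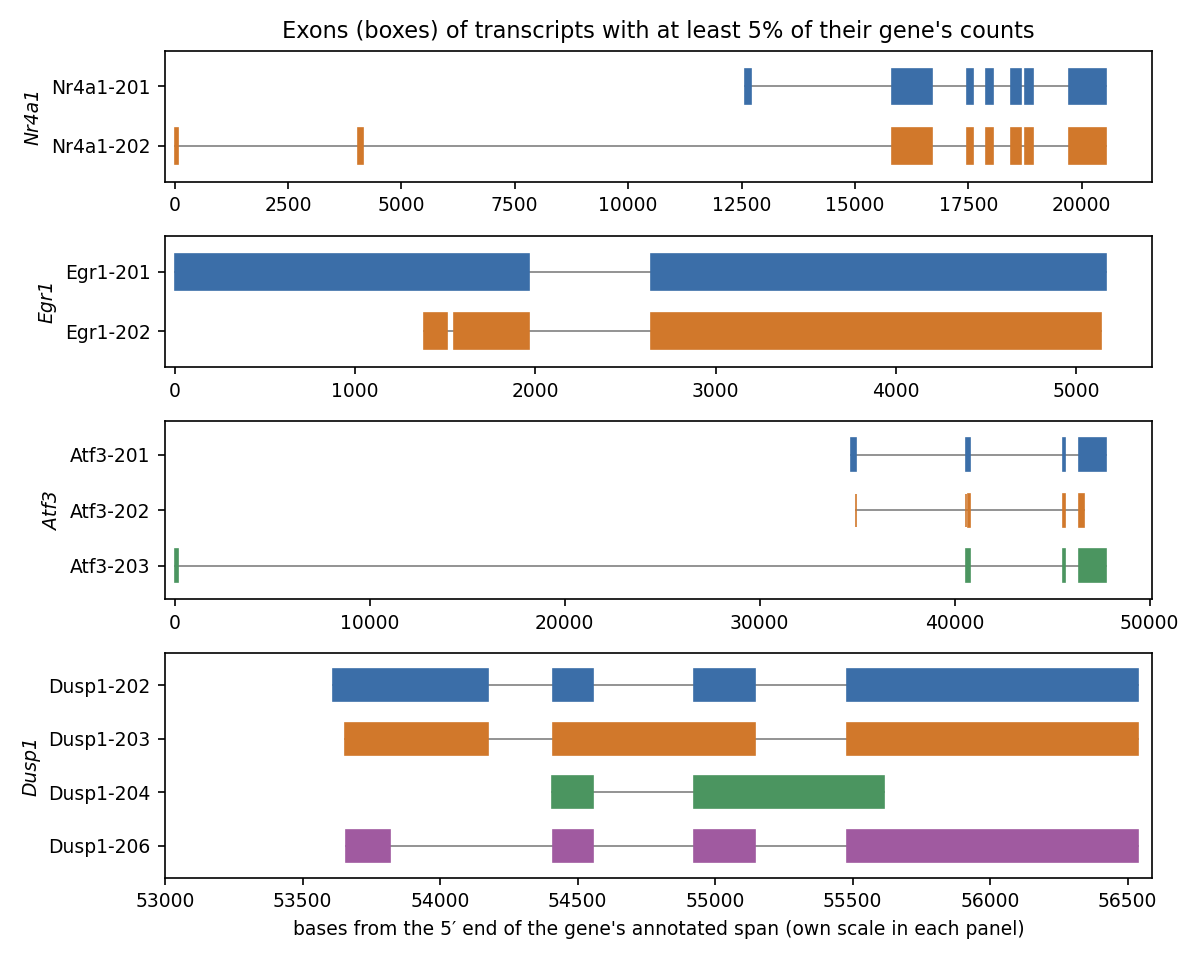
Exons, as boxes, of the main transcripts of Nr4a1, Egr1, Atf3 and Dusp1 along the distance in bases from the 5′ end of the gene, with its own scale in each panel. Nr4a1-202 and Atf3-203 start far ahead of the other forms, and the retained introns of Dusp1-203 and Dusp1-204 show as longer boxes.

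Some members overlap genes on the other strand, and whether the counting used strand is not given in the sources used here. Junos shares 689 bases with Jun and held 21 and 36 counts against 1955 and 2608 for Jun. Prdx2 shares 351 bases with the span of Junb and held 1637 and 2341 counts against 198 and 277, but the overlapping Junb transcript held no count by alignment. Ergic1 shares 640 bases with the span of Dusp1 and held 1257 and 1131 counts. The posterior SD, a deposited score of how surely reads were assigned to a gene, was 0 for all 10 members in both libraries.

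Among 36 other immediate early genes, 33 passed the count minimum, and 6 were over 2-fold higher in replicate 2 (4.62% of all tested genes) and 1 lower (3.1%). Their median log2 ratio was 0.42, near that of the members, and 27 of 33 were above 0. The highest by level were Per1, a clock gene (30.76 and 34.87 TPM), Jund (25.76 and 30.54 TPM), Gadd45g, a stress-response gene (5.55 and 22.99 TPM), and Nfil3, a bZIP repressor (14.36 and 7.82 TPM). Gadd45g was 2.03 higher on the log2 scale and Nr4a3 1.91 lower, from 12.59 to 3.72 TPM, while Nr4a1 was only 0.16 higher. In the reads-based table both Nr4a3 and Nr4a1 had a lower TPM in replicate 2. Csrnp1, at 1.41 and 4.31 TPM, was 1.84 higher, and Klf2, at 3.99 and 10.34 TPM, was 1.38 higher. Ptgs2, at 0.05 and 0.13 TPM, was 1.19 higher, but from only 6 and 15 counts. Its fold interval of 0.874 to 7.50 includes 1. Socs3 (0.65 and 1.84 TPM) and Ccn2 (5.39 and 11.63 TPM) had log2 ratios of 1.09 and 1.07, and both were named after their values were seen.

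Of 9 tested AP-1 and related bZIP partner genes, none was over 2-fold apart, beside 7.72% of all tested genes, and the median log2 ratio was 0.14. This list shares Fosl1, Fosl2, Jund and Maff with the other immediate early genes. Atf4 was at 46.93 and 53.67 TPM, Atf7 at 21.43 and 19.71 TPM and Mafg at 21.07 and 18.92 TPM. Of 24 upstream kinases and factors none was over 2-fold apart either, and the median was -0.09, which turned to 0.30 under the spike-in scaling that moved all genes by a like amount. Map2k2 (76.89 and 62.84 TPM), Mef2d (65.32 and 68.13 TPM) and Mapk14 (37.20 and 32.53 TPM) were among the highest. Of 20 inhibitors and mRNA decay factors, 1 was over 2-fold higher in replicate 2, near the 4.62% of all tested genes: the JNK and p38 phosphatase Dusp10, at 5.76 and 18.45 TPM. Its log2 ratio of 1.69 exceeded the 0.84 of its paralog Dusp1. The list shares Dusp5, Dusp6 and Zfp36 with the other immediate early genes. Its median was 0.17, and its highest genes by level were Cnot7 (15.75 and 16.18 TPM), Elavl1 (14.01 and 15.58 TPM) and Dusp8 (13.69 and 12.74 TPM). Under the spike-in scaling, the genes over 2-fold higher in replicate 2 were 9.68% of all tested genes, and numbered 12 of the 33 other immediate early genes, 1 of the 9 bZIP genes, 0 of the 24 upstream genes and 3 of the 20 inhibitors and decay factors.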

How the data were processed

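Total RNA-seq of 1 tissue was read from 2 libraries that form 1 group. The authors deposited, per the file headers, gene tables with expected counts, TPM and the posterior SD of each count, a score of the certainty of read assignment. They also deposited alignment-based and reads-based transcript tables with expected or estimated counts and TPM. Per the deposited descriptions, build mm10 and GENCODE M21 were used, and the quantification program is not given in the sources used here. Genes were matched by symbol through the reads-based identifiers, and Cyr61 and Ctgf through the synonyms of RefSeq.

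Expected counts were scaled by TMM in edgeR 4.0.16 (R 4.3.3) with a prior count of 0.5, and log2 ratios are replicate 2 over replicate 1. Genes averaging 10 or more counts, called tested genes, were compared at a fold of 2, with no significance test since each side holds 1 library. Intervals of 95% are exact Clopper-Pearson for ratios and Wilson for shares. The alternatives were DESeq2 1.42.0 size factors, spike-in totals, TPM, the reads-based table, other filters and other priors. Python 3.11.15, pandas 2.3.3, scipy 1.17.1 and matplotlib 3.10.9 did the rest, and the scaling and spread estimates were tested on simulated counts with known folds.

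The members and lists were chosen with earlier results of these data known. All 10 members are named, with the 4 genes of highest mean TPM in each list and those beyond a log2 ratio of 1, up to 8 a list. A gene that this rule selects is not reported here.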

Additional observations from a re-analysis of the deposited data

How the results depend on the processing

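Scaling by the spike-in total raised the number of members over 2-fold apart from 3 to 5, adding Dusp1 and Atf3, while the share of all tested genes became 11.3%. The members' median log2 ratio became 0.77 there, with all genes at 0.39. Fosb fell inside 2-fold on the TPM scale and did not reach a minimum mean count of 100, which left 2 members over 2-fold apart in either case. A detection limit of 5 TPM left 4 of 9 detected members. Without a filter beyond 1 count the common spread was 0.260 over 21235 genes. In the reads-based table the protein-coding share was 96.6%. The members' mean levels were higher there, such as 7.71 TPM for Atf3 beside 3.955 TPM. Nr4a1 was at 106.9 and 104.2 TPM in that table, so the order of its TPM values reversed. TPM recomputed without mitochondrial, 7SL RNA and spike-in rows gave every member a higher mean level, such as 140.55 TPM for Nr4a1 beside 74.85 TPM. That setting still left 9 detected members. Leaving out either library gave 9 detected members, a Fos share of 25.3% to 44.9%, a Jun share of 41.2% to 42.4% and a coding share of 96.7% to 96.9%. Of the members' single ratios, 9 moved under the spike-in scaling, and that of Atf3 moved on the TPM scale. No ratio of a called member reversed. No paired analysis was possible because the libraries form 1 group. Depth limits Fosb, with 26 and 10 counts.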
